A study of Mus musculus with 45 samples.

Results

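Small intestinal organoids from Lgr5 WT fetal mice were compared between 2 recombinant mouse Rspondins given at the same low concentration: Rspo2 at 5 ng/ml against Rspo1 at 5 ng/ml. The comparison holds 6 RNA-seq libraries, chosen by culture, ligand and concentration, out of 45 libraries in the series and 30 organoid libraries. It covers all genes and is paired by culture. The 3 cultures, WT10, WT5 and WT30, each came from the intestine of 1 embryo at E17.5 of the Lgr5-DTReGFP line and carried the Lgr5 wild-type genotype, that is, no copy of the knock-in allele. They were harvested at passage 4, and each culture gave 1 library per condition. Hence n = 3 cultures for every WT value below, with values in the order WT10, WT5 and WT30, and n = 2 for KO values. Both groups shared the same Matrigel and culture medium with EGF, noggin, B27 and N-acetyl cysteine, and differed only in the Rspondin added, which was produced in CHO cells. Other WT libraries of the same cultures received Rspo3 at 5 ng/ml or each ligand at 100 ng/ml, and 2 cultures (KO7 and KO2) were homozygous for the knock-in allele, which disrupts Lgr5. In the paper, the lowest tested concentration at which all replated organoids survived was 5 ng/ml for Rspo2 and 100 ng/ml for Rspo1. The part of survival in the results was not tested. The receptors are often said to bind Rspo2 and Rspo1 interchangeably. The question was whether both leave the same cultures with the same transcriptome at 5 ng/ml.

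Rspondins are secreted proteins that amplify Wnt signalling. They bind a receptor of the Lgr4, Lgr5 and Lgr6 family together with Rnf43 or Znrf3, membrane ubiquitin ligases that otherwise remove the Wnt receptors from the cell surface, and so keep Frizzled and Lrp receptors in place. In the small intestine this signal maintains the stem cells at the crypt base, which themselves express Lgr5, while cells that leave it become absorptive enterocytes or secretory Paneth, goblet, enteroendocrine and tuft cells. Organoids hold the epithelium without the stroma that supplies Rspondins in the tissue, so the medium is their source, and without enough of it they stop budding and lose their stem cells.

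The libraries held between 18461390 and 30777735 reads on genes, as estimated from the spacing of low values. Values are CPM, read counts relative to the library's total, on which level comparisons between genes of different length are not made. Epithelial identity markers (Epcam, Cdh1, Krt8 and others) summed to 6290-7380 CPM in the Rspo1 and 6330-6970 CPM in the Rspo2 libraries. Over the whole lists, mesenchymal markers summed to 13.9-15.9 against 13.3-19.2 CPM, endothelial markers to 1.1-1.25 against 1.45-2.1 CPM and neural markers to 0.5-0.85 against 0.7-1.2 CPM. Immune markers summed to 20.4-34.8 against 14.9-17.1 CPM, carried by Csf1r (19.4, 25.7 and 33.6 against 13.4, 14.9 and 15.5 CPM) while Ptprc, a marker of white blood cells, lay between 0 and 0.15 CPM. The mitochondrial genome gave 1.02-1.57% of reads with Rspo1 and 1.55-1.74% with Rspo2. Ribosomal protein genes gave 2.2-4.02% against 2.49-2.8%, and the highest of these values belongs to the Rspo1 library of WT10, which stands apart from the other 5. The part of any of these in the results was not tested.

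With Rspo2 at 5 ng/ml, organoids had higher relative levels of crypt, replication and amino acid genes than with Rspo1 at the same concentration. Relative levels of drug metabolism genes, cholesterol synthesis genes and many enterocyte genes were lower. Of 18256 genes tested, 4701 were higher with Rspo2 (25.8%) and 2070 were lower (11.3%) at a Benjamini-Hochberg FDR of 0.05 in limma, 37.1% in all. The median log2 fold change over all genes tested was 0.086. The excess of rises depended on how the libraries were scaled: after median-of-ratios scaling, which moved the median by -0.105, 3011 genes were higher and 3222 lower (34.1% in all), so that rises made up 48.3% of the calls in place of 69.4%. All 3011 rises of the scaled values and all 2070 falls of the unscaled values were called in both, and 0 genes were called in opposite directions. Of the 6771 genes called, 6586 moved the same way in all 3 cultures, and 3682 were also called from the 6 libraries alone. Without WT10, 3978 genes were called, without WT5 5298 and without WT30 4438. Most changes were small: 419 genes rose and 317 fell by more than 2-fold (2.3% and 1.74%), and 24 rose and 44 fell by more than 4-fold.

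**Figure D1:**
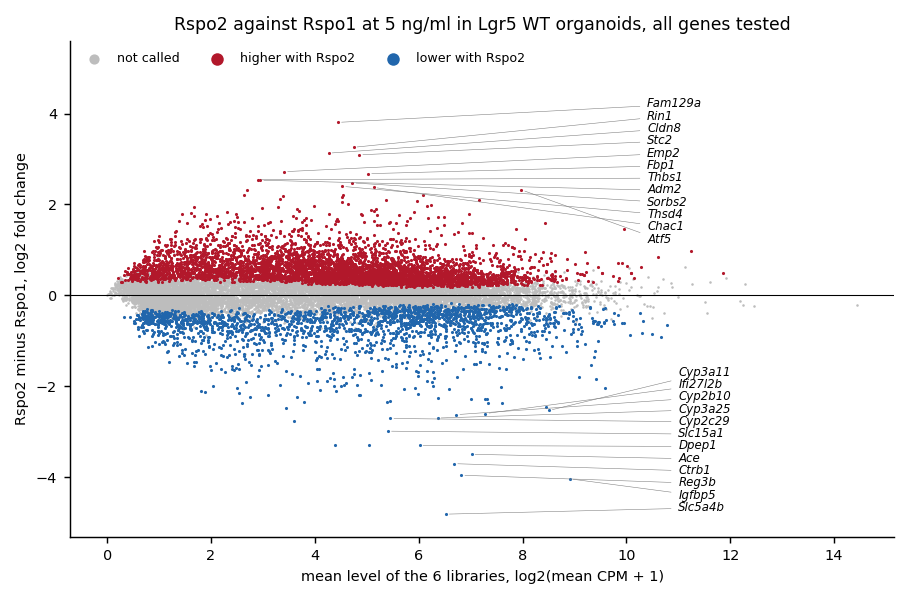
Log2 fold change of Rspo2 minus Rspo1 at 5 ng/ml on log2(CPM + 1) values (y axis) against the mean level of the 6 libraries (x axis) for the 18256 genes tested, with red and blue points for the 4701 genes called higher and the 2070 called lower. The labelled genes are the 12 largest rises and the 12 largest falls, which reach 3.81 for Fam129a and -4.81 for Slc5a4b.

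Among called genes with a mean of at least 5 CPM, the largest rise was that of Fam129a, a stress-induced protein also called Niban, with 1.85, 1.9 and 1.7 CPM with Rspo1 and 44.3, 26 and 48.9 CPM with Rspo2 (log2 fold change 3.81, SE 0.24, adjusted p = 4.81e-08). Next came Rin1 (3.26), Cldn8 (3.13), Stc2 (3.09), Emp2 (2.72), Fbp1 (2.68), Thbs1 (2.54), Adm2 (2.53), Sorbs2 (2.48), Thsd4 (2.40), Chac1 (2.38) and Atf5 (2.32), with the log2 fold change in brackets. They encode, among others, a Ras and Rab regulator (Rin1), a tight junction claudin (Cldn8), the secreted glycoprotein stanniocalcin 2 (Stc2), the gluconeogenic fructose bisphosphatase (Fbp1), the matrix protein thrombospondin 1 (Thbs1), a peptide hormone (Adm2), an enzyme that degrades glutathione (Chac1) and a stress-responsive transcription factor (Atf5). Cldn8 read 2.75, 3.15 and 2.05 CPM with Rspo1 and 26.7, 19.4 and 55.2 CPM with Rspo2, and Thbs1 2, 0.9 and 0.55 CPM with Rspo1 and 16.8, 11.7 and 6.8 CPM with Rspo2. For all 12 of these genes, the lowest Rspo2 library lay above the highest Rspo1 library, as it did for 27.2% of all genes tested.

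The largest fall among such genes was that of Slc5a4b (ENSMUSG00000020226, chr10:76057494-76110961, minus strand, GRCm38), a member of the sodium-glucose transporter family, from 176, 214 and 137 CPM to 7.05, 6.95 and 2.75 CPM (log2 fold change -4.81, SE 0.20, adjusted p = 2.67e-10). The others were Igfbp5 (-4.03), Reg3b (-3.95), Ctrb1 (-3.70), Ace (-3.49), Dpep1 (-3.30), Slc15a1 (-2.98), Cyp2c29 (-2.70), Cyp3a25 (-2.70), Cyp2b10 (-2.62), Ifi27l2b (-2.60) and Cyp3a11 (-2.53). Reg3b, an antibacterial lectin, fell from 306, 212 and 117 to 17.9, 7.85 and 11.5 CPM, and Ctrb1, a chymotrypsinogen, from 104, 251 and 215 to 7.3, 17.4 and 16.1 CPM. Ace and Dpep1 are brush border peptidases, Slc15a1 is the intestinal peptide transporter, and the 4 Cyp genes encode cytochrome P450 enzymes that oxidise drugs and steroids. Igfbp5, a binding protein for insulin-like growth factors, differed widely between cultures, with 798, 249 and 1593 CPM with Rspo1 and 17.3, 197 and 19.2 CPM with Rspo2, and its adjusted p = 0.00434 in limma did not pass the threshold without WT10 or without WT30. With that exception, these 12 genes were also called after leaving out any 1 culture.

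Among the receptor complex itself, Lgr5 and both ubiquitin ligases were higher with Rspo2, while Lgr4 did not pass the test. Lgr5 (ENSMUSG00000020140, chr10:115450311-115587780, minus strand in GRCm38) read 5.4, 5.65 and 3.45 CPM with Rspo1 and 15.9, 28.7 and 6.1 CPM with Rspo2 (log2 fold change 1.41, SE 0.33, adjusted p = 0.00377). All 3 Rspo2 values of Lgr5 exceeded all 3 Rspo1 values, with that of WT30 close to the top of the Rspo1 range. Rnf43 read 34.2, 38.6 and 31.7 CPM with Rspo1 and 58.9, 82.2 and 36.6 CPM with Rspo2 (log2 fold change 0.68, SE 0.18, adjusted p = 0.00732), and Znrf3 read 21.3, 30.9 and 26.7 CPM with Rspo1 and 42.1, 49.3 and 40.0 CPM with Rspo2 (log2 fold change 0.73, SE 0.13, adjusted p = 0.000393). For Lgr4, the more widely expressed receptor, the values were 224, 261 and 269.7 CPM with Rspo1 and 277, 279 and 256 CPM with Rspo2 and the 2 groups overlapped (log2 fold change 0.11, SE 0.09, adjusted p = 0.368), with the sign turning to -0.02 under median-of-ratios scaling. The glypican Gpc3 was lower (-0.58, adjusted p = 0.00946), and Lgr6 and the 4 Rspondin genes did not reach the level at which genes were tested. In all, 3 of the 8 tested genes of this list rose (37.5%) and 1 fell (12.5%), against 25.8% and 11.3% of all genes.

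Wnt target and feedback genes rose with Rspo2: 13 of 18 tested passed the test as higher and 0 as lower, with a median log2 fold change of 0.73 against 0.086 over all genes. Crypt stem cell markers, which share 6 genes with that list, gave 12 higher and 0 lower of 15, with a median of 0.87. The shares called higher, 72.2% and 80.0%, stand beside 25.8% of all genes, of which 11.3% were called lower. Axin2 (ENSMUSG00000000142, chr11:108920349-108950783, plus strand), the standard feedback target of the pathway, read 14.8, 25.1 and 15.7 CPM with Rspo1 and 44.2, 91 and 14.6 CPM with Rspo2 (log2 fold change 1.08, SE 0.35, adjusted p = 0.024). It was higher with Rspo2 in WT10 and WT5 and slightly lower in WT30. Olfm4, a glycoprotein of crypt base cells, read 51.2, 37.9 and 25.1 CPM with Rspo1 and 155, 227 and 36.2 CPM with Rspo2 (log2 fold change 1.55, SE 0.39, adjusted p = 0.00538), with WT30 inside the Rspo1 range. Ascl2, the stem cell transcription factor, was low with Rspo1 and read 0.35, 0.5 and 0.4 CPM with Rspo1 and 3.85, 4.45 and 1.95 CPM with Rspo2 (log2 fold change 1.59, SE 0.28, adjusted p = 0.000449). Tnfrsf19, also known as Troy, read 0.35, 0.15 and 0.1 CPM with Rspo1 and 4.35, 2.5 and 2.75 CPM with Rspo2 (log2 fold change 1.79, SE 0.23). For Ascl2 and Tnfrsf19 all 3 cultures stood clear of the Rspo1 range, as for 27.2% of all genes tested with Rspo2 above. Cd44 (1.26), Cdk6 (1.72), Cdca7 (1.25) and Prom1 (0.87) also rose.

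Members that were not called included Sp5 and Smoc2. Sp5, a direct target that represses other targets, was low in every library, with 3.05, 2.05 and 1.4 CPM with Rspo1 and 0.9, 1.6 and 0.55 CPM with Rspo2 (log2 fold change -0.65, adjusted p = 0.147), and it was called as lower without WT5, with a pseudocount of 0.1 or with the 6 libraries alone. Smoc2, a matrix protein of stem cells, read 143, 166 and 129.9 CPM with Rspo1 and 120.0, 189 and 87.3 CPM with Rspo2 (-0.21, adjusted p = 0.455). In these bulk libraries, fewer cells of a type and less RNA per cell cannot be told apart. The cultures contributed unequally. The median difference over the Wnt target list was 0.89, 1.14 and 0.23 in WT10, WT5 and WT30, and over the stem cell markers it was 1.17, 1.23 and 0.51. The count of Wnt target genes called higher was 6, 9 and 15 without WT10, WT5 and WT30, and that of stem cell markers 5, 7 and 11. Axin2 did not pass the test without WT10, without WT5 or with culture left out of the model, Olfm4 not without WT10 or without WT5, and Lgr5 and Rnf43 did not pass it without WT10, all with the same sign.

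**Figure D2:**
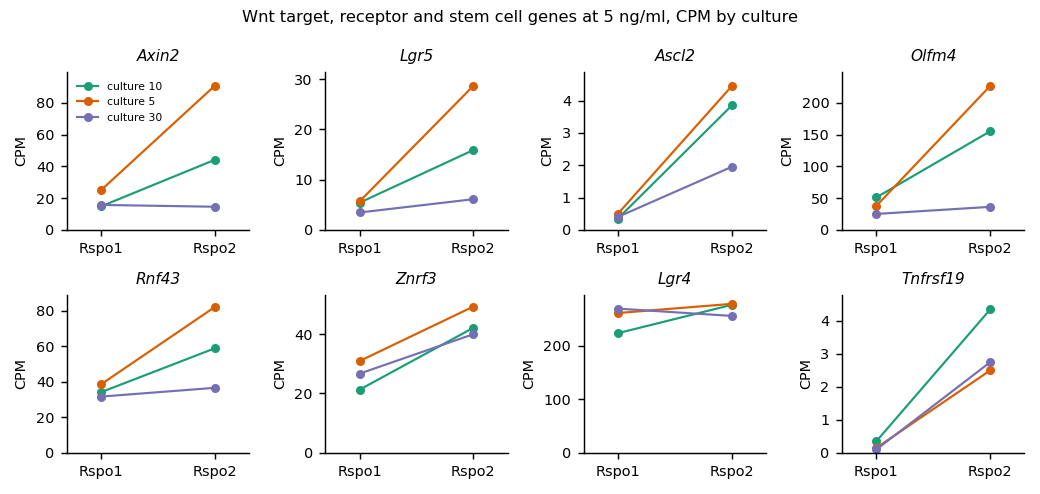
CPM (y axis, starting at 0) of 8 receptor, Wnt target and stem cell genes in Lgr5 WT organoids with Rspo1 or Rspo2 at 5 ng/ml, with 1 line for each of the 3 cultures. The lines of WT10 and WT5 rise for Axin2, Lgr5, Olfm4 and Rnf43 while that of WT30 is nearly flat, all 3 lines rise for Ascl2 and Tnfrsf19, and Lgr4 shows no common direction.

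Genes of DNA replication and mitosis rose together. Of 30 tested, 27 were higher with Rspo2 and 0 lower, with a median of 0.77, and 23 were higher after median-of-ratios scaling. Without that scaling 90.0% of the list was higher, beside 25.8% of all genes. Mki67, the antigen of cycling cells, read 208, 339 and 292 CPM with Rspo1 and 471, 586 and 473 CPM with Rspo2 (log2 fold change 0.89, SE 0.15, adjusted p = 0.000261). Mcm2, a subunit of the replicative helicase, read 27.5, 31.4 and 28.4 CPM with Rspo1 and 74.5, 85.3 and 50.9 CPM with Rspo2 (log2 fold change 1.22, SE 0.20). The Rspo2 libraries lay above the Rspo1 libraries for both, as for 27.2% of all genes tested. The licensing factor Cdt1 (0.95), the ubiquitin ligase subunit Dtl that acts during S phase (1.35), topoisomerase Top2a (1.10) and the ribonucleotide reductase subunit Rrm2 (1.16) had the smallest adjusted p-values of the list. Pcna (0.29), Gins2 (0.13) and Birc5 (0.01) were not called. The median difference of the list was 0.86, 0.86 and 0.69 in WT10, WT5 and WT30, and 23 of its genes were called higher without each culture in turn.

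A group of genes for making and importing amino acids, for charging transfer RNAs and for the integrated stress response was higher with Rspo2. These 3 lists were assembled after the values had been seen, so their counts describe the pattern and do not test it. The integrated stress response is the cell's common reaction to amino acid shortage, misfolded protein and other insults, in which the transcription factor Atf4 and its partners switch on amino acid supply. 18 of 20 amino acid genes were higher and 1 lower (median 1.12), 18 of 20 cytosolic aminoacyl-tRNA synthetase genes were higher and 0 lower (0.66), and 14 of 16 tested integrated stress response genes were higher and 0 lower (1.58). The shares called higher, 90.0%, 90.0% and 87.5%, stand beside 25.8% of all genes. Under median-of-ratios scaling the counts were 15 higher and 1 lower, 14 and 1, and 13 and 1. Stc2 (ENSMUSG00000020303, chr11:31357307-31370074, minus strand) read 6.4, 4.4 and 4.55 CPM with Rspo1 and 54.7, 45.8 and 51.7 CPM with Rspo2 (log2 fold change 3.09, SE 0.11, adjusted p = 8.57e-11). All 3 Rspo2 libraries of Stc2 lay far above every Rspo1 library, and the spread within each group was small. Atf5 read 65.3, 78.7 and 107 CPM with Rspo1 and 407, 344 and 503 CPM with Rspo2 (log2 fold change 2.32, SE 0.14), and Atf4 itself rose less (0.60). Ddit3 (1.55), Trib3 (2.20), Chac1 (2.38), Gdf15 (2.17) and Vldlr (1.60) rose, Atf3 (0.72, adjusted p = 0.0606) and Ddit4 (-0.41, adjusted p = 0.0536) were not called, and Fgf21 was too low to test. A broader stress response list, which holds 5 of these genes beside heat shock and immediate early genes, gave 7 higher and 0 lower of 16 (median 0.45), and the chaperones Hspa5, Hspa1a and Hspa1b were not called.

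Asparagine synthetase, Asns, read 68.4, 64.8 and 81.3 CPM with Rspo1 and 192, 173 and 194 CPM with Rspo2 (log2 fold change 1.38, SE 0.10, adjusted p = 1.54e-07). Genes for serine and glycine synthesis and the folate cycle rose with it, among them Phgdh (1.13), Psat1 (1.12), Shmt2 (0.85), Mthfd2 (1.49) and Aldh1l2 (2.09). So did the amino acid transporters Slc7a5 (1.73), Slc7a11 (1.88), Slc7a1 (1.25) and Slc1a5 (1.08), and the transaminase Gpt2 (1.58). Slc3a2, the shared heavy chain of Slc7a5 and Slc7a11, fell slightly (-0.26). Of the synthetases, Sars (0.92), Aars (0.98), Yars (0.80) and Nars (0.92) had the smallest adjusted p-values, and Farsa (-0.28) and Hars (0.18) were not called. Chaperones of the unfolded protein response and heat shock did not pass the test, with Hspa5 at 0.03 and Hspa1a at 0.07.

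The element read by Atf4 together with C/EBP partners is textbook for these genes, so the promoter windows from 250 bases before to 50 after the RefSeq start site (GRCm38.p6) were searched on both strands for the letters TGATGNAA. Of genes with a window, 4 of 15 amino acid genes (26.7%), 5 of 12 synthetase genes (41.7%) and 6 of 17 integrated stress response genes (35.3%) held a match, against 1219 of 27025 genes (4.51%) overall. The genes with a match were Asns, Pycr1, Slc1a4 and Slc7a11, then Aars, Gars, Iars, Tars and Yars, then Atf3, Chac1, Fgf21, Nupr1, Trib3 and Vldlr. Among the last, Atf3 was not called and Fgf21 was too low to test. A match is a run of letters, not evidence of binding. With the element textbook for these genes, the excess over all genes describes the lists and tests nothing about this comparison. The stretches below are shown for called genes of the 3 lists, 5′ to 3′ along the gene's own strand, with the match in capitals.
Asns (chr6:7693190-7693269, minus strand): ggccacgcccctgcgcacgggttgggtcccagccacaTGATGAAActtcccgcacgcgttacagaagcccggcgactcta
Chac1 (chr2:119351012-119351091, plus strand): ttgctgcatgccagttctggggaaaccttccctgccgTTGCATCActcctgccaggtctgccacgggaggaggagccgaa
Trib3 (chr2:152344011-152344090, minus strand): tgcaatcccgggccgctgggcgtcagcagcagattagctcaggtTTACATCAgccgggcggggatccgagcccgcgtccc
Vldlr (chr19:27216783-27216862, plus strand): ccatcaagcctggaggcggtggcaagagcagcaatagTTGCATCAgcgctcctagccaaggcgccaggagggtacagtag
Yars (chr4:129189869-129189948, plus strand): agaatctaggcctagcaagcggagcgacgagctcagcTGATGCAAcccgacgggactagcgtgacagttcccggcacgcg
In Asns and Yars the match reads TGATGNAA along the gene's strand, and in Chac1, Trib3 and Vldlr it lies on the opposite strand. The match began 23 bases before the start site in Asns, 193 before it in Chac1 and 200 before it in Vldlr, and after it in Trib3 and Yars. For the Wnt targets, CTTTGAT or CTTTGAA, letters read by Tcf and Lef factors, were held by 2 of 14 genes of that list (14.3%: Sp5 and Tnfrsf19) and by 9.88% of all genes.

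The EGF receptor ligands, another list assembled after the values had been seen, gave 5 higher and 0 lower of 7 tested. The share called higher was 71.4%, beside 25.8% of all genes. Btc, betacellulin, read 9.35, 7.55 and 6.55 CPM with Rspo1 and 41.7, 26.5 and 40.1 CPM with Rspo2 (log2 fold change 2.06, SE 0.18, adjusted p = 1.02e-06). Areg, amphiregulin, read 29.9, 23.4 and 13.4 CPM with Rspo1 and 85.2, 39.7 and 85.5 CPM with Rspo2 (log2 fold change 1.60, SE 0.27), and Tgfa (0.65), Egf (0.54) and Ereg (0.47) were also called. For Btc and Areg the 2 groups did not overlap, as for 27.2% of all genes tested with Rspo2 above. Egf was not called without WT5, and Tgfa not without WT10 or WT30.

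Secretory lineage genes were called in part. Of the regulators of Notch signalling and secretory fate, 6 of 14 were higher and 0 lower, but 3 were lower after median-of-ratios scaling. Jag2 and Dll4, Notch ligands, rose (1.79 and 0.67), as did the receptor Notch2 (0.80), the secretory factor Atoh1 (0.54) and Neurog3, which opens the enteroendocrine program (1.02). Neurod1 (0.84) and Tph1 (0.76) were among 5 enteroendocrine markers called higher and 2 lower of 17, while Chga (0.18, adjusted p = 0.5) was not called. Of the Paneth markers 4 of 10 rose, with Itln1 (1.34), Habp2 (1.35), Nupr1 (1.63) and Ang4 (0.73). Nupr1 is also in the integrated stress response list. The defining Paneth genes Lyz1 and Mmp7 were not called. Lyz1 read 185, 79.0 and 128 CPM with Rspo1 and 161, 173 and 134 CPM with Rspo2, and its log2 fold change of 0.33 turned to -0.07 without WT5. Goblet markers gave 2 higher and 1 lower of 10, with Muc2 at 0.19 (adjusted p = 0.365), Spdef at 0.56 and Zg16 at -0.95. No tuft marker of 7 was called by limma, with 1 higher at an unadjusted p under 0.05, and the marker Dclk1 stood at 0.50 (adjusted p = 0.159).

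Markers of fetal and regenerating epithelium were higher in part, with 6 of 17 rising, 0 falling and a median of 0.28. Anxa3 (1.59), Areg (1.60), Il1rn (1.28) and Anxa1 (0.82) rose. Clu, a marker of revival stem cells, was not called with 18.3, 6.5 and 3.9 CPM with Rspo1 and 21.7, 10.5 and 7.55 CPM with Rspo2 (0.55, adjusted p = 0.113). 3 genes of the list rose and 0 fell without WT10, 5 rose and 2 fell without WT5, and 5 rose and 0 fell without WT30. With culture left out of the model, 2 rose and 0 fell. The shares called higher, 42.9% of Notch and secretory regulators, 29.4% of enteroendocrine, 40.0% of Paneth, 20.0% of goblet and 35.3% of fetal markers, stand beside 25.8% of all genes.

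Enterocyte genes fell, though not all of them. Brush border enzymes gave 12 lower and 3 higher of 18 (median -1.02), and nutrient transporters gave 12 lower and 2 higher of 17 (median -1.27). The shares called lower, 66.7% and 70.6%, stand beside 11.3% of all genes. The mean summed level of the brush border list was nearly equal, at 9040 CPM with Rspo1 and 8980 CPM with Rspo2. That of the transporters was 2600 and 2160 CPM. Ace fell from 181, 295 and 230.2 to 28.5, 28.2 and 9.15 CPM (log2 fold change -3.49, SE 0.35, adjusted p = 3.42e-06). Anpep, aminopeptidase N, was lower (-1.83), as were the peptidase Naaladl1 (-2.18), gamma-glutamyltransferase Ggt1 (-2.05), enteropeptidase Tmprss15 (-1.19) and intestinal alkaline phosphatase Alpi (-0.85), the last not without WT10. Slc15a1, the peptide transporter, fell from 67.9, 96.2 and 58.1 to 13.3, 7.35 and 5.7 CPM. The nucleoside transporter Slc28a1 (-2.37), the phosphate transporter Slc34a2 (-2.32), the inositol transporter Slc5a11 (-1.87) and the neutral amino acid transporter Slc6a19 (-1.34) fell with it. In each of these 5 transporters the 2 groups did not overlap, as for 11.8% of all genes tested with Rspo2 below.

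Lct and Sis, genes of sugar digestion, did not fall with the rest, and the cultures differed. Lactase, Lct, read 21.6, 64.3 and 36.8 CPM with Rspo1 and 147, 53.5 and 531 CPM with Rspo2 (log2 fold change 2.09, SE 0.54, adjusted p = 0.00686), and sucrase-isomaltase, Sis, read 1238, 1831 and 1656 CPM with Rspo1 and 3171, 1897 and 4772 CPM with Rspo2 (log2 fold change 0.98, SE 0.30, adjusted p = 0.0172). Both were higher with Rspo2 in WT10 and WT30, whereas in WT5 Lct was lower and Sis nearly level. Slc2a2, the basolateral glucose and fructose transporter, rose by 1.97 and Fbp1 by 2.68. The trehalase gene Treh fell (-1.50), as did Slc5a4b of the sodium-glucose transporter family (-4.81). In a list of carbohydrate genes assembled after seeing this, 9 of 15 were higher and 2 lower, with medians of 0.90, 0.13 and 1.00 in WT10, WT5 and WT30. These shares, 60.0% and 13.3%, stand beside 25.8% and 11.3% of all genes. Without WT10 2 genes of the list were called higher and without WT30 3. Neither Lct nor Sis passed the test without WT10 or without WT30, and Sis did not after median-of-ratios scaling. Lipid absorption genes gave 6 lower and 0 higher of 15, or 9 lower after median-of-ratios scaling. Without that scaling 40.0% were lower, beside 11.3% of all genes. Apoa1, the main protein of high density lipoprotein, fell from 835, 514 and 437 to 137, 98 and 82.4 CPM. Fabp2 (-0.76), Apoc2 (-1.46) and Dgat1 (-0.86) fell as well, and Apoa4 was not called (-0.51, adjusted p = 0.0734).

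Cholesterol synthesis genes were lower by a small and even amount. 18 of 20 fell and 0 rose, with a median of -0.63 and all 20 fold changes between -0.82 and -0.07. The share called lower was 90.0%, beside 11.3% of all genes. Dhcr7, which acts late in the pathway, read 177, 193 and 182 CPM with Rspo1 and 110.2, 115 and 99.8 CPM with Rspo2 (log2 fold change -0.76, SE 0.09, adjusted p = 1.54e-05). Its 2 groups did not overlap, as for 11.8% of all genes tested with Rspo2 below. Idi1 (-0.82), Cyp51 (-0.72) and Insig1 (-0.74) fell, while Srebf2, which encodes the controlling transcription factor, stood at -0.07 (adjusted p = 0.634). 16, 16 and 15 genes were lower without WT10, WT5 and WT30. The letters TCACNCCAC, read by sterol-responsive factors, were in the promoter window of 1 of 12 genes of the list (8.33%: Hmgcs1) and of 1.44% of all genes.

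Of all lists examined, drug metabolism genes had the lowest median, with 18 of 21 lower, 0 higher and a median of -1.66. The share called lower was 85.7%, beside 11.3% of all genes. Cyp3a11 (ENSMUSG00000056035, chr5:145854426-145879964, minus strand), a major drug-oxidising cytochrome P450, fell from 632, 667 and 551 to 142, 93 and 89.7 CPM (log2 fold change -2.53, SE 0.18, adjusted p = 1.52e-07). Cyp2b10 read 129, 279 and 138 CPM with Rspo1 and 23.8, 36.0 and 22.8 CPM with Rspo2. Across the Cyp3a family 6 of 7 genes fell (85.7%) and Cyp3a57 rose (1.02). Across the Cyp2c family 9 of 14 fell (64.3%) and 0 rose. Glutathione and quinone detoxification genes are a list assembled after the values had been seen and share 3 genes with the drug metabolism list. They gave 25 lower (86.2%) and 0 higher of 29, and the same counts with any 1 culture left out. Gstm1 fell from 1188, 1299 and 1172 to 381, 379 and 180.5 CPM (log2 fold change -2.04, SE 0.17, adjusted p = 5.51e-07), Cbr3, a carbonyl reductase, from 26.0, 14.3 and 12.6 to 2.6, 2.35 and 1.65 CPM, and Nqo1, a quinone reductase, from 286, 219 and 278 to 59.5, 70.3 and 34.8 CPM. Gclc, the catalytic subunit of the enzyme that begins glutathione synthesis, fell as well (-1.39), while Slc7a11, which imports its cystine, rose. Hmox1 was not called (0.30). The antioxidant element letters TGACNNNGC were held by 6 of 25 genes of this list with a window (24.0%) and by 3781 of all 27025 genes. Cyp2c, Cyp3a, Gst and Defa genes lie in clusters of near-identical copies, between which reads can be shared, so that single members are less certain than the family.

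**Figure D3:**
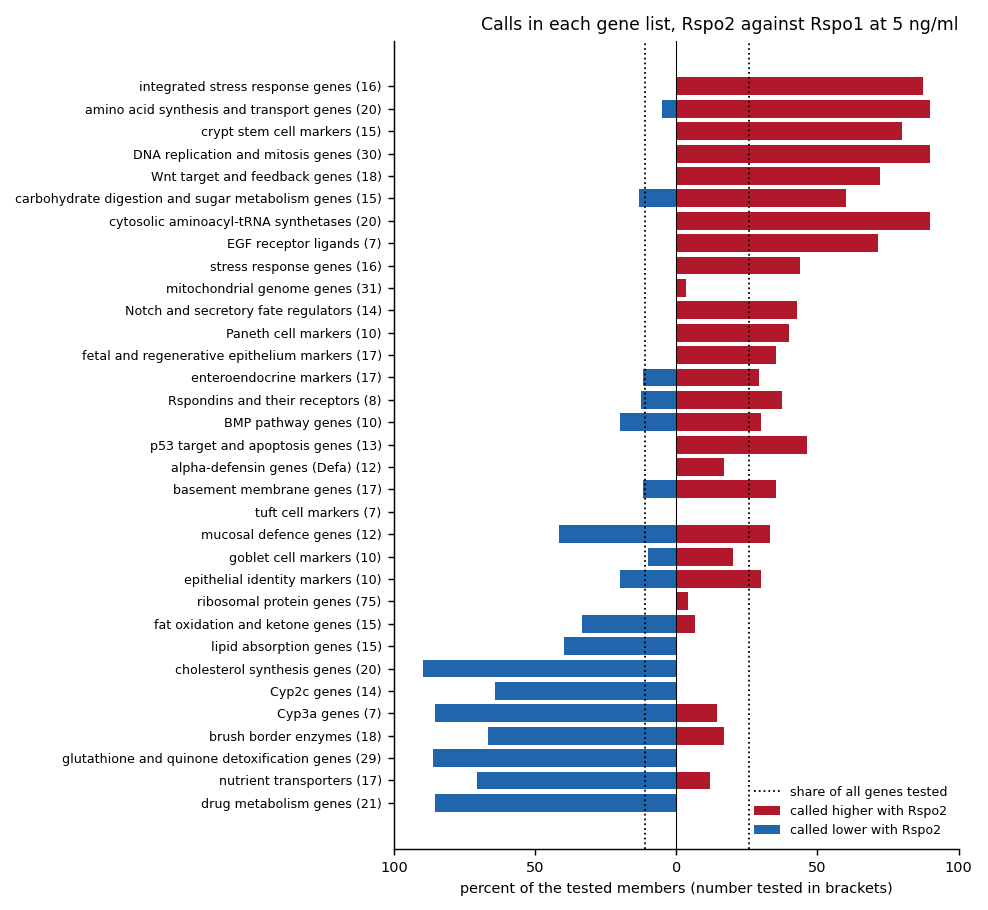
Percent of the tested members of each gene list (number tested in brackets) called higher (red, to the right) or lower (blue, to the left) with Rspo2 than with Rspo1 at 5 ng/ml, lists ordered by their median fold change and dotted lines marking 25.8% and 11.3% of all genes tested. Amino acid, synthetase, replication and stem cell lists reach far past the right line, and drug metabolism, glutathione, cholesterol, transporter and brush border lists far past the left one.

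The difference between the ligands depended on their concentration. At 100 ng/ml the same 3 cultures had received both ligands, and the difference between Rspo2 and Rspo1 at 5 minus that at 100 ng/ml was called for 3058 of 18256 genes (16.8%) in limma, 2246 of them positive (12.3%) and 812 negative (4.45%), or 1131 and 1292 after median-of-ratios scaling. The count was 1381 when culture was left out of the model, and 623 without WT10, 1457 without WT5 and 1465 without WT30. The Stc2 difference was 3.09 at 5 and -0.15 at 100 ng/ml (difference 3.24, SE 0.16, adjusted p = 9.05e-09). The 100 ng/ml libraries of Stc2 read 70.7, 48.4 and 60.8 CPM with Rspo1 and 54.1, 49.5 and 56.6 CPM with Rspo2. Adm2 (difference 2.98), Gpt2 (1.87) and Vldlr (1.82) followed, and Ctrb1 gave -3.02. By list, 24 of 30 replication, 17 of 20 amino acid, 16 of 20 synthetase and 14 of 16 integrated stress response genes had a positive difference between doses. 21 of 29 glutathione, 11 of 21 drug metabolism and 10 of 17 transporter genes had a negative one. The Wnt targets gave 1 positive and 2 negative of 18, and the stem cell markers 1 and 0 of 15. At 100 ng/ml the median Wnt target difference was 0.91, 0.17 and 1.23 and that of stem cell markers 1.15, 0.16 and 1.37 in WT10, WT5 and WT30. The smallest value came from WT30 at 5 ng/ml and from WT5 at 100 ng/ml.

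Set beside the 100 ng/ml libraries, genes and lists differed in where Rspo2 at 5 ng/ml stood. For Slc5a4b the Rspo2 libraries at 5 ng/ml lay at 7.05, 6.95 and 2.75 CPM, near those with 100 ng/ml Rspo1 (12.7, 18.1 and 5.3 CPM), and the same held for Stc2 and Reg3b, the latter at 23.9, 15.9 and 7.95 CPM with 100 ng/ml Rspo1. For Axin2 it did not: 100 ng/ml gave 239, 429.7 and 226 CPM with Rspo1 and 530.3, 462 and 615 CPM with Rspo2, far above the 44.2, 91 and 14.6 CPM with Rspo2 at 5 ng/ml. Lgr5 likewise reached 116, 192 and 94.2 CPM with Rspo1 at 100 ng/ml. Other lists stood elsewhere. The mean summed level of drug metabolism genes was 3600 CPM with Rspo2 at 5 ng/ml, between the 7160 CPM with Rspo1 at 5 and the 2160 CPM with Rspo1 at 100 ng/ml. That of replication genes was likewise 2190 CPM, between 1250 and 3150 CPM, whereas that of EGF receptor ligands, at 184 CPM, lay above both (83.5 and 141 CPM). Sp5, low in all libraries at 5 ng/ml, read 6.7, 18.1 and 3.75 CPM with Rspo1 and 61.6, 36.6 and 57.4 CPM with Rspo2 at 100 ng/ml (difference between doses -3.19, SE 0.48, adjusted p = 0.00057).

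**Figure D4:**
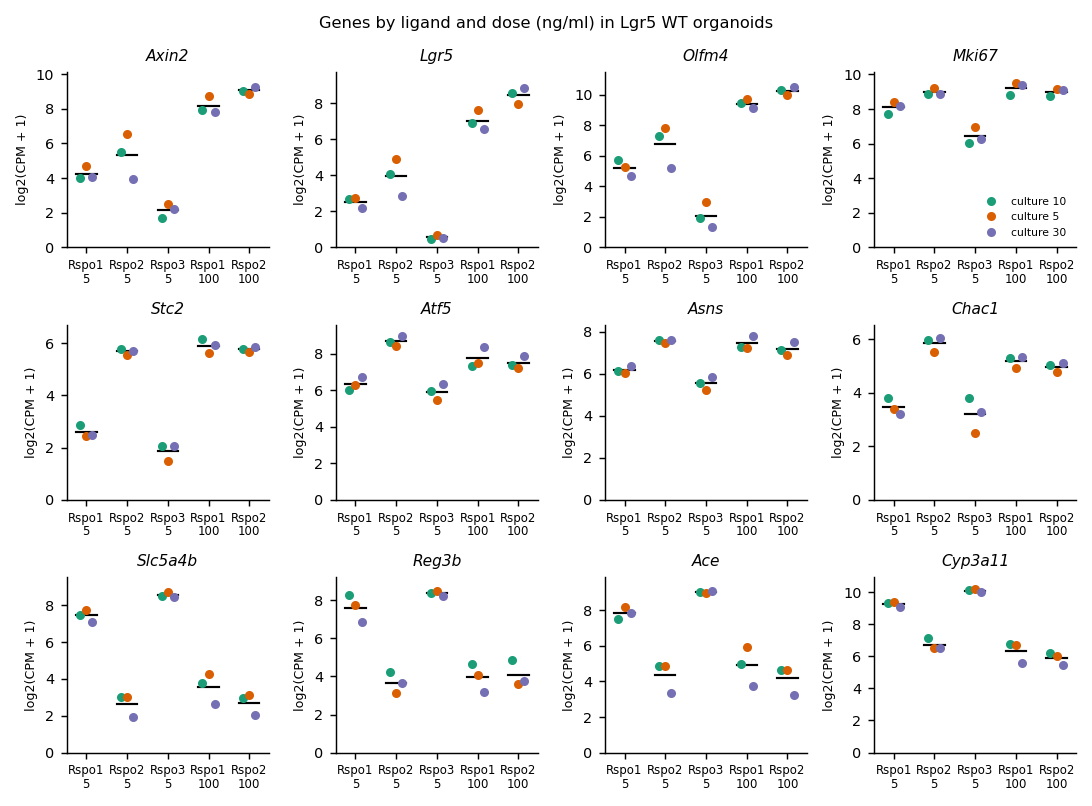
Log2(CPM + 1) of 12 genes (y axis, starting at 0) in the WT libraries with Rspo1, Rspo2 or Rspo3 at 5 ng/ml and with Rspo1 or Rspo2 at 100 ng/ml, 1 point per culture and a bar at the mean of the 3, with Rspo3 at 100 ng/ml not shown. Rspo2 at 5 lies near the 100 ng/ml groups for Stc2, Slc5a4b and Reg3b, and well below them for Axin2, Lgr5 and Olfm4.

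**Figure D5:**
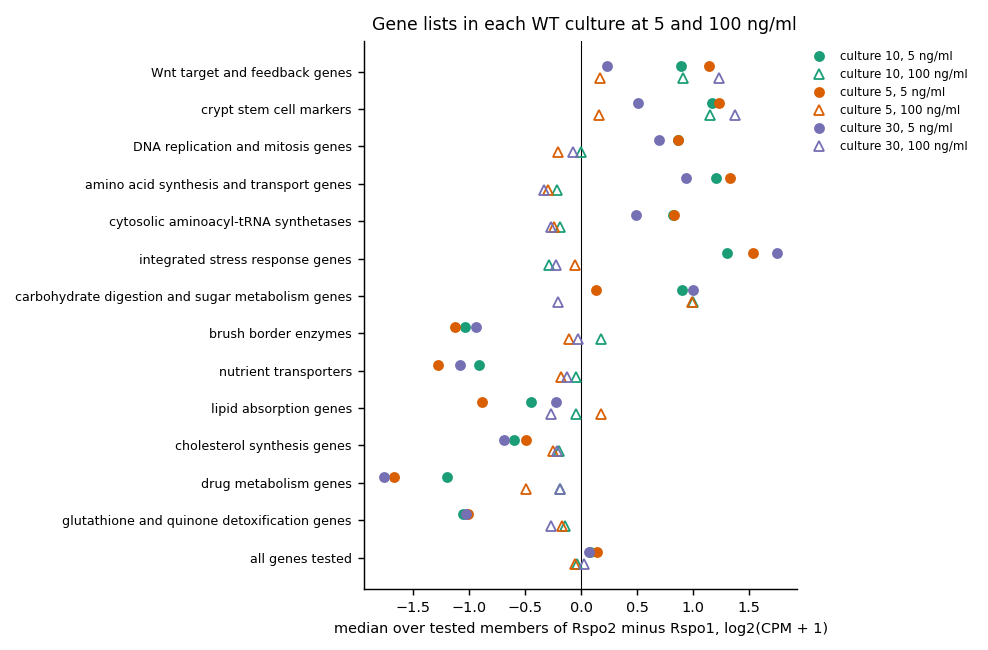
Median over the tested members of gene lists of the Rspo2 minus Rspo1 difference in log2(CPM + 1) (x axis) in each WT culture, with filled circles at 5 and open triangles at 100 ng/ml. Circles of the 3 cultures lie close together for replication, brush border and glutathione genes. WT30 stands nearest to 0 at 5 ng/ml for the Wnt target and stem cell lists.

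Rspo3 at 5 ng/ml was given to the same cultures, and for Axin2, Olfm4, Mki67, Slc5a4b and Stc2 its libraries lay on the far side of Rspo1. This comparison shares the Rspo2 libraries with the one above, so the 2 are not independent. Against Rspo3, 7259 genes were higher (39.8%) and 3077 lower (16.9%) with Rspo2, 56.6% in all, and between 8226 and 8884 were called with any 1 culture left out. Axin2 read 2.2, 4.6 and 3.65 CPM with Rspo3, below each Rspo1 library, and Olfm4 read 2.8, 6.8 and 1.5 CPM. Mki67 read 64.8, 123 and 77.3 CPM and Slc5a4b 357, 423 and 345 CPM, again beyond the Rspo1 values in the direction away from Rspo2. Stc2, at 3.2, 1.8 and 3.15 CPM with Rspo3, had the smallest adjusted p of this comparison (3.82, SE 0.11, adjusted p = 3.07e-12). The next smallest p-values were those of Slc5a4b (-5.91), Slc28a1 (-3.77), Ctrb1 (-3.52) and the cell cycle scaffold Iqgap3 (2.70). 15 of 18 Wnt targets, 15 of 15 stem cell markers and 29 of 30 replication genes were higher with Rspo2 than with Rspo3. Other lists did not take this order. The mean summed level of EGF receptor ligands was 83.5 CPM with Rspo1, 184 with Rspo2 and 178 with Rspo3, and 2 higher and 1 lower of 7 genes were called against Rspo3. That of fetal markers was 199, 240 and 435 CPM, with 1 higher and 3 lower of 17, and that of carbohydrate genes 7690, 13500 and 11400 CPM, with 3 higher and 2 lower of 15.

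Whether the response needs an intact Lgr5 was asked with the KO cultures, which gave 2 libraries per ligand at 5 ng/ml. Lgr5 reads were not absent from them, with 1.1 and 7.4 CPM with Rspo1 and 20.6 and 90.5 CPM with Rspo2 in KO7 and KO2, so read counts over the whole gene do not check the genotype. Y-linked genes read 34.8-73.5 CPM in the 12 KO libraries and at most 0.15 CPM in the 6 WT libraries, so genotype and sex cannot be told apart. Xist, made from the inactive X chromosome of female cells, read 1282-2134 CPM in the 6 WT libraries. It was far lower but not absent in the KO libraries, at 1.9 and 0.6 CPM with Rspo1 and 29.4 and 16.9 CPM with Rspo2 at 5 ng/ml in KO7 and KO2, and it reached 213 CPM in the KO2 library with Rspo1 at 100 ng/ml. Xist was thus higher with Rspo2 than with Rspo1 at 5 ng/ml in both KO cultures, and its part in the comparison of genotypes was not tested. The difference between the ligands differed between WT and KO for 14 of 18742 genes in limma, 0.0747% in all, 1 positive (0.00534%) and 13 negative (0.0694%), with 2409 at an unadjusted p under 0.05. The count depended on single cultures, from 0 without WT10, where 1366 genes had an unadjusted p under 0.05, to 420 without KO2, with 68 without WT5 and 2 without WT30 or without KO7. When culture was left out of the model it was 1. Wnt3, a Wnt ligand made by Paneth cells, had a larger ligand difference in the KO cultures (WT minus KO -1.51, SE 0.23, adjusted p = 0.0156), with 1.9 and 2.45 CPM with Rspo1 and 8.35 and 10.2 CPM with Rspo2 in the KO cultures against 3, 2.55 and 2.45 CPM with Rspo1 and 3.55, 3.15 and 2.8 CPM with Rspo2 in the WT cultures. Slc28a1 (-1.59), S100a11 (-1.79), Defa26 (-1.69) and Krt4 (-2.51) shared that adjusted p, as did Fam46c (-2.38). The median difference over the Wnt target list was 2.03 and 1.97 in KO7 and KO2 and 0.89, 1.14 and 0.23 in WT10, WT5 and WT30, with 0 of 18 genes called between the genotypes and 12 at an unadjusted p under 0.05. Axin2 read 11.2 and 55.3 CPM with Rspo1 and 138 and 433 CPM with Rspo2 in the KO cultures. Replication genes gave medians of 0.93 and 0.69 and integrated stress response genes 0.44 and 0.60 in KO7 and KO2, with 0 genes of either list called between the genotypes and 0 and 10 at an unadjusted p under 0.05. With so few cultures, genes not called are not shown to respond alike.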

How the data were processed

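Total RNA of passage 4 organoids was extracted and made into rRNA-depleted libraries, sequenced as paired ends. Per the submitters' processing notes, reads were trimmed with Trimmomatic 0.36, aligned to GRCm38.p4/mm10 with STAR 2.5.3a and counted per gene with HTSeq 0.9.1. The authors deposited CPM values per library, rounded up to steps of 0.05, so whole reads could not be recovered and count models were not used. Depth was estimated from the spacing of low values (18461390 to 30777735 reads on genes in the 6 libraries) with a procedure checked on simulated columns.

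Genes were kept if 3 or more of the 18 WT libraries reached 1 CPM, and were tested on log2(CPM + 1) with limma 3.58.1 (R 4.3.3; linear model, culture as a term, variance trend, Benjamini-Hochberg), calling at an FDR of 0.05. Fold changes are on that scale and understate changes of low genes. The same model tested the difference between doses and Rspo2 against Rspo3. All 30 organoid libraries were fitted for WT against KO. With culture as a term, p-values rest on how far differences between conditions varied among the 3 cultures, each from 1 embryo. That spread was estimated over all 18 WT libraries, not only over the 6 compared. The procedure was also run on simulated data, in which far fewer genes changed than were called here and the cultures responded alike. That run therefore does not check the calls made here. The samples are paired by the culture numbers in the sample labels. Deviations from the group means gave r = 0.221, 0.182 and 0.522 within cultures and -0.351 to 0.128 across cultures. Centring each group on its own mean ties both sets of r together, so they are no independent check of the pairing.

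Members, gene lists and the tests were chosen with earlier results of these data known, and 8 lists or families (amino acid, synthetase, integrated stress response, EGF ligand, glutathione, carbohydrate, Cyp2c and Cyp3a genes) were assembled after the values were seen. Genes are named by rule: 25 marker genes always, the 12 largest rises and falls among called genes with a mean of at least 5 CPM and the same sign in all cultures, up to 4 called genes per list and the 5 with the smallest adjusted p, ties ordered by p, in each other comparison, leaving out Gm, Rik and clone names. Further list members were named after their values were seen. Ensembl genes were placed with GRCm38 coordinates for 52489 of 52636 genes. Promoter windows were taken from RefSeq (GRCm38.p6). The alternatives were another pseudocount, filters, scaling, sets of libraries, no culture term, robust moderation, a fold limit and each culture left out. The libraries of sorted cells were not used here.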

Additional observations from a re-analysis of the deposited data

Results flagged for a closer look

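The difference between Rspo2 and Rspo1 differed between 5 and 100 ng/ml for 3058 genes by the test of the difference itself. The genes with the smallest adjusted p were Stc2 (difference between doses 3.24 on the log2 scale), Adm2 (2.98), Gpt2 (1.87), Vldlr (1.82) and Ctrb1 (-3.02). For Stc2 the paired differences were 2.91, 3.11 and 3.25 at 5 ng/ml and -0.38, 0.03 and -0.10 at 100 ng/ml. For Ctrb1 they were -3.66, -3.78 and -3.66 at 5 ng/ml and -0.64, -0.50 and -0.91 at 100 ng/ml.

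The same difference at 5 ng/ml differed between WT and KO cultures for 14 genes. Slc28a1 fell more in the WT cultures (difference between genotypes -1.59), and Wnt3 (-1.51), Defa26 (-1.69) and Krt4 (-2.51) had paired differences of 1.69 or more in both KO cultures and of at most 0.74 in the WT cultures. In the 6 WT libraries Defa26 lay between 0.05 and 0.9 CPM and Krt4 between 0 and 0.35 CPM. S100a11 moved down in all 3 WT cultures (-1.46, -0.88 and -1.23) and up in both KO cultures (0.72 and 0.47), a difference of -1.79. Fam46c, with the same adjusted p as these genes, had a difference of -2.38. The 2 genotypes also differed in Y-linked genes and Xist, and the part of sex in these differences cannot be told apart.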

How the results depend on the processing

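Against the 6771 genes called between Rspo2 and Rspo1 at 5 ng/ml, 6983 were called with a pseudocount of 0.1, 6728 with robust moderation, 6857 with all 30 libraries, 6233 after median-of-ratios scaling, 5898 without a filter, 4980 with a mean of at least 10 CPM and 4707 without the replicate block. Fewer were called from the 6 libraries alone (3708) and with a fold change above 2 (736), and leaving out 1 culture gave 3978 to 5298. The 3058 genes differing between doses became 1381 without the replicate block and 623 to 1465 with 1 culture left out, which also uses fewer samples. The 14 genes differing between WT and KO became 7 with a mean of at least 10 CPM, 1 without the replicate block, and 0 to 420 with 1 culture left out. Against Rspo3, the 10336 genes became 8592 without the replicate block and 8226 to 8884 with 1 culture left out. Apart from the fits with fewer samples or genes, the cause was not tested. For 153 named genes, 1651 values under the alternatives kept their side of the threshold and direction in 1518, lost the call in 120, gained it in 10 and reversed in 3, none of them called: Lgr4 (-0.024 under scaling), Lyz1 (-0.072 to 0.592 with 1 culture left out, the lowest without WT5) and Col4a1 (-0.103 to 0.335, the lowest without WT30). In the library with 18461390 reads, 1 read is 0.0542 CPM, so genes such as Ascl2 with Rspo1 rest on few reads.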

Other observations

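Basement membrane genes gave 6 higher and 2 lower of 17 with Rspo2, or 6 and 5 after median-of-ratios scaling. These shares, 35.3% and 11.8%, stand beside 25.8% and 11.3% of all genes. Lama5, a laminin alpha chain, read 32.0, 14.3 and 19.2 CPM with Rspo1 and 89.0, 79.6 and 53.8 CPM with Rspo2 (log2 fold change 1.76, SE 0.16, adjusted p = 1.62e-06), and Lamb2 read 3.45, 2.7 and 3 CPM with Rspo1 and 14.5, 12.9 and 16.2 CPM with Rspo2 (log2 fold change 1.94). Thbs1 (2.54) rose, and Hspg2, perlecan, fell (-1.04). Col4a1, a collagen of the basement membrane, was not called (0.12, adjusted p = 0.778). Of the BMP pathway genes, 3 of 10 rose and 2 fell (30% and 20%), with the target Id2 at 1.64, the ligand Bmp7 at 1.16, the ligand Bmp3 at -0.77 and the inhibitor Smad7 at -0.86.

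Mucosal defence genes split, with 33.3% higher and 41.7% lower beside 25.8% and 11.3% of all genes. Reg3b (-3.95) and Reg3a (-1.46) fell while Tnfaip2 (2.31), Icam1 (1.23) and Nos2 (1.41) rose, 4 higher and 5 lower of 12. Of the alpha-defensins, 2 of 12 tested were higher, Defa35 (1.22) and Defa30 (0.92). Among p53 targets 6 of 13 rose and 0 fell, or 4 and 1 after scaling, led by Gdf15 (2.17) and Sesn2 (0.73), which the integrated stress response list also holds, and with Cdkn1a at 0.52 and Mdm2 at -0.12 (adjusted p = 0.314). Of the reserve stem cell markers, Bmi1 rose (1.11), Hopx fell (-0.63) and 2 were not called. Genes of fat oxidation and ketone synthesis gave 1 higher and 5 lower of 15, with Pck1, of gluconeogenesis, at -1.24.

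Ribosomal protein genes gave 3 higher and 0 lower of 75, but 18 higher without WT10, whose Rspo1 library had the highest ribosomal protein share. Their median difference was -0.77, 0.34 and 0.24 in WT10, WT5 and WT30. Of 31 mitochondrial genome genes, 1 was called higher and 0 lower. With all cultures, the shares called higher, 4.0% of ribosomal and 3.23% of mitochondrial genes, lay below the 25.8% of all genes.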
